A study of Mus musculus with 2 samples.

Results

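The Hox gene clusters were examined here through the accessible chromatin of mouse splenic B cells. The members are 38 Hox genes out of 22350 protein-coding genes of the GENCODE M1 annotation on chromosomes 1 to 19 and X. They were listed by symbol and not by a measured value, but with earlier results of these data known. DNase I hypersensitive sites (DHS) were assigned to them when they overlapped a member's gene body, or the 5 kb on either side of it, by at least 1 bp. This gave 43 of the 47474 DHS on those chromosomes. Of the 43, 15 lay in the window of 1 member and 28 in the windows of several, up to 4, so neighbouring genes often share a DHS and are not independent of each other.

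Hox genes encode homeodomain transcription factors that assign position along the head-to-tail axis of the embryo. They sit in clusters on different chromosomes, where the order of the genes, from the 3' end (low numbers) to the 5' end (high numbers), follows the order of their expression along the body axis, and genes of the same number in different clusters (paralogues) derive from a common ancestor. In blood, several Hoxa and Hoxb genes are known for their activity in stem and progenitor cells and for their decline as cells mature. Polycomb complexes keep Hox clusters silent in many adult cells, and the Mll1 methyltransferase keeps them active.

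The cells were B cells enriched from the spleen of 8 weeks old mice of the C57/Bl6 strain by magnetic selection with B220 MicroBeads, B220 being a surface protein of B cells. The mice were Trp53+/+, with intact alleles of the gene for p53, and the treatment is given as mock. The series has 2 samples, both of this kind: 1 DNaseI library, whose peak list was analysed here, and 1 input library, for which no file was used here. DNase I cuts accessible DNA more readily than DNA wrapped in nucleosomes. Per the methods of the study, apoptotic cells were removed on a Ficoll gradient and of several digests that with the strongest signal over noise in qPCR was taken. There are no replicates, so no p-value is given, and all intervals are exact 95% intervals that cover counting error only. The labels do not say how many animals gave the cells.

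Each DHS carries a score of the authors' peak caller, whose scale is not stated. It is used only to rank DHS within this list, where it ran from 5.05 to 619 with a median of 32.65. The list holds no read counts and the depth is unknown, so where no DHS is given, none was called, and closed chromatin is not shown. A DHS open in a few cells and a DHS weakly open in many cannot be told apart in such a list. The enrichment for B cells was checked on promoters, which reach here from 5 kb before to 2 kb after any annotated transcription start site (TSS). All 8 B cell markers had a promoter DHS, among them Pax5 (score 265), Ms4a1 (216) and Cd79b (109), and none of 6 T cell markers had one, though Cd3g and Cd4 each had 2 DHS in the gene body or within 5 kb. Markers of other cells were present in part: 3 of 5 myeloid markers (Cd14, Elane and Itgam, scores 18.2 to 51.1), 2 of 4 progenitor markers (Flt3, 46.8, and Gata2, 22.8, while Kit and Cd34 had none) and 2 of 3 erythroid markers (such as Klf1, 178). These shares are read against the 57% of all protein-coding genes with a promoter DHS. A DHS over a TSS was present at all 8 B cell markers, at 1 myeloid, 1 progenitor and 1 erythroid marker, and at 0 T cell markers. The part of other cells in the Hox results was not tested.

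The highest-scoring DHS of each cluster are shown by 200 bases of their exon-free sequence (mm9, plus strand), as the regions to which the comparison of the clusters refers. A second Hoxa DHS, upstream of Hoxa4, is added because it stood alone within the 3' part of that cluster. Capitals mark a match to AGNNGGCGC, the core of the motif of the insulator protein CTCF, which only the Hoxc stretch held.
Hoxa, chr6:52162185-52162384, from the DHS over the TSSs of Hoxa6 and Hoxa3: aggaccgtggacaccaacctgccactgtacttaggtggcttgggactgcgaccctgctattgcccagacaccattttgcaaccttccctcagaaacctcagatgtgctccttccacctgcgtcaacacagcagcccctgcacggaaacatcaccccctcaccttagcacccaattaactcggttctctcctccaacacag
Hoxa, chr6:52142165-52142364, from the DHS upstream of Hoxa4: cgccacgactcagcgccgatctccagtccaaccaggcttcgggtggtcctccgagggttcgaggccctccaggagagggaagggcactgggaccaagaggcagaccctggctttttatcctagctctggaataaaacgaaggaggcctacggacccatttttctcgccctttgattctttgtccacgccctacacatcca
Hoxb, chr11:96172845-96173044, from the DHS upstream of Hoxb4: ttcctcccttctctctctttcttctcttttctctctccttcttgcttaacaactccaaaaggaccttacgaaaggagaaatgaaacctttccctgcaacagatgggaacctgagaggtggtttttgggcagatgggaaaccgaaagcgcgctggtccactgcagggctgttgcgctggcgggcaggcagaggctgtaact
Hoxc, chr15:102817901-102818100, from the DHS upstream of Hoxc8: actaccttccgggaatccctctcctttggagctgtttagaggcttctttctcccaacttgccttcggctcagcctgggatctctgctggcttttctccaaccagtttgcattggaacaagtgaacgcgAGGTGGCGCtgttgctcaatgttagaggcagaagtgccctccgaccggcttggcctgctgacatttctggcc
Hoxd, chr2:74510859-74511058, from the DHS upstream of Hoxd12: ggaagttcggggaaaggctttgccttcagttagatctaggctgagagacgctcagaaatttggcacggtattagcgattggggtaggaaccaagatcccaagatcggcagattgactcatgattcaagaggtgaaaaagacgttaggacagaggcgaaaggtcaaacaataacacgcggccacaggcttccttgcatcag
These 5 stretches held between 5 and 11 CpG dinucleotides and had a GC content from 49.0% to 58.0%, with the stretch upstream of Hoxa4 the richest in both. They served only to show the regions, and nothing was inferred from them.

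The 4 clusters differed in how many DHS they held. Hoxa, on chromosome 6, had 26 DHS, Hoxb, on chromosome 11, had 10, Hoxc, on chromosome 15, had 6, and Hoxd, on chromosome 2, had 1. Their windows are of similar length, between 102 kb for Hoxd and 120 kb for Hoxc, so the order is the same per length. The density was 24.3 DHS per 100 kb in Hoxa (15.9 to 35.6), 8.38 in Hoxb (4.02 to 15.4), 5.003 in Hoxc (1.84 to 10.9) and 0.979 in Hoxd (0.0248 to 5.46). Over the windows of all protein-coding genes it was 3.08 (3.05 to 3.11).

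Expressed as a ratio, Hoxa held 2.90 times the density of Hoxb (1.35 to 6.73), 4.85 times that of Hoxc (1.95 to 14.4) and 24.8 times that of Hoxd (4.08 to 1017). These 3 intervals lay above 1, as did that of Hoxb over Hoxd, at 8.56 (1.22 to 371). The intervals of Hoxb over Hoxc, 1.68 (0.552 to 5.61), and of Hoxc over Hoxd, 5.11 (0.620 to 235), included 1, so neither of these neighbours in the order was separated beyond counting error. All 6 pairs are given, without correction for their number, and since DHS that lie close together are not independent, the intervals are too narrow. Against the windows of all protein-coding genes, the density was 7.88 times as high in Hoxa (5.15 to 11.5) and 2.72 times in Hoxb (1.30 to 5.001), whereas the intervals of Hoxc, 1.62 (0.596 to 3.53), and of Hoxd, 0.318 (0.00804 to 1.77), included 1.

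The share of bases inside a DHS gave the same order. It was 28.7% in Hoxa, 5.30% in Hoxb, 3.34% in Hoxc and 0.518% in Hoxd, against 2.96% in all protein-coding gene windows. Joining DHS closer than 500 bp lowered the Hoxa density to 16.8 per 100 kb and the Hoxb density to 5.87, raised their covered shares to 30.1% and 5.74%, and left Hoxc and Hoxd as they were. Of 26378 tiles of 100 kb over the same chromosomes, 0.0341% held DHS at the Hoxa density or above. The corresponding share was 5.72% for Hoxb, 12.0% for Hoxc and 38.8% for Hoxd, with a median of 0 DHS per tile and a maximum of 33. The tiles cover gene-poor sequence too, which the Hox windows do not.

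**Figure D1:**
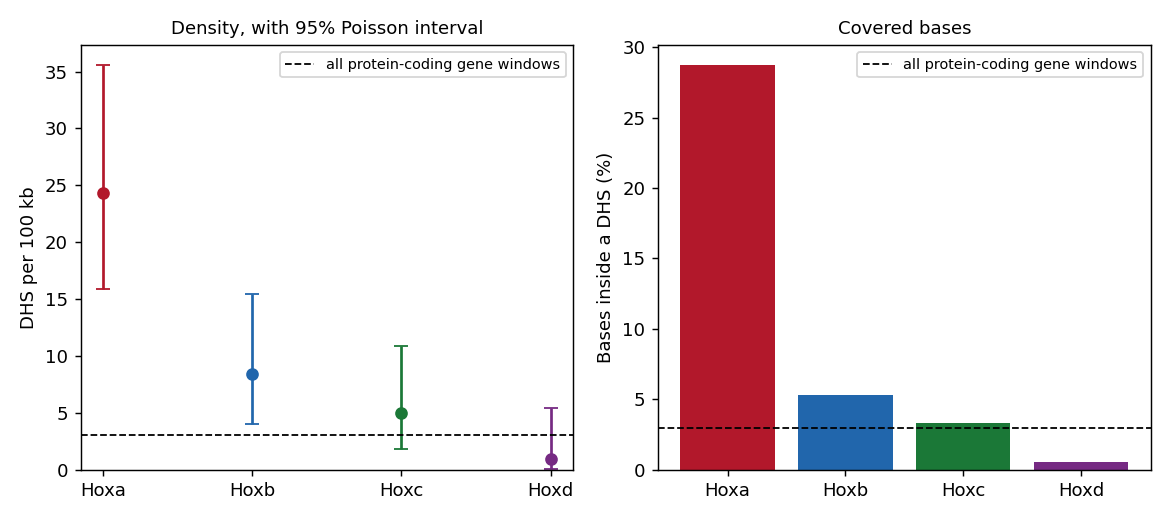
DHS density (left, DHS per 100 kb with the exact 95% Poisson interval) and share of bases inside a DHS (right, percent) in the windows of the Hoxa, Hoxb, Hoxc and Hoxd clusters in 1 DNaseI library, with all protein-coding gene windows as a dashed line. Both measures fall in the order Hoxa, Hoxb, Hoxc, Hoxd, from 24.3 to 0.979 DHS per 100 kb and from 28.7% to 0.518% of bases.

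The Hox DHS were many in Hoxa but mostly of low score. Over the 4 clusters the median score was 22.6, with a range from 7.64 to 147, and 11 of 43 DHS (25.6%, 13.5% to 41.2%) were at or above the median of all DHS. Below that median were 20 of 26 in Hoxa, 7 of 10 in Hoxb and 5 of 6 in Hoxc, while the single DHS of Hoxd was above it. The median score of Hoxa, 21.2, was below that of Hoxb, 26.8, and above that of Hoxc, 16.7. With only the DHS at or above the median score, the density was 5.61 per 100 kb in Hoxa (2.06 to 12.2), 2.51 in Hoxb (0.519 to 7.35), 0.834 in Hoxc (0.0211 to 4.65) and 0.979 in Hoxd (0.0248 to 5.46). Hoxa thus remained the highest, but its interval overlapped those of the other clusters, and Hoxc and Hoxd changed places on 1 DHS each.

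Width set Hoxa apart more than score. The median width was 1007 bp in Hoxa, with a range from 334 to 4126 bp, against 641 bp in Hoxb, 631.5 bp in Hoxc, 529 bp for the Hoxd DHS and 760 bp over the whole list. The DHS of 4126 bp spanned a Hoxa7 TSS. By position, 9 of the 43 DHS covered a member's TSS, 11 touched an exon without a TSS, 6 lay elsewhere in a gene body and 17 between members. Those over a TSS were the widest, with a median of 1710 bp, and had the highest median score, 34.1, compared with 17.1 for exon DHS, 14.02 for other gene body DHS and 24.1 for DHS between members. Hoxa had 8 of the 9 DHS over a TSS and Hoxc the other, and Hoxb and Hoxd had none.

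The sequence under Hox DHS was rich in CpG. Their GC content had a median of 53.6% and their ratio of observed to expected CpG a median of 0.539, compared with 49.3% and 0.288 over all DHS. The median CpG ratio was 0.549 in Hoxa, 0.517 in Hoxb and 0.482 in Hoxc, and the Hoxd DHS reached 0.772. All 4 values lay above the median of all DHS, in clusters that are themselves rich in CpG.

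Along the Hoxa cluster (chr6:52112350-52210874, transcribed from the minus strand) accessibility was concentrated in the middle and 5' portions. Dividing the span from the outermost 3' to the outermost 5' gene end into 3 equal portions of 32.8 kb, the 3' portion, with the coding starts of Hoxa2, Hoxa3 and Hoxa4, had 1 DHS and 1.85% of its bases covered. The middle portion, with Hoxa5, Hoxa6, Hoxa7 and Hoxa9, had 7 DHS and 36.3% covered, and the 5' portion, with Hoxa10, Hoxa11 and Hoxa13, had 15 DHS and 49.3% covered. At 45.7 DHS per 100 kb (25.6 to 75.3), the 5' portion was the most densely occupied of the 12 portions of the 4 clusters. The highest scores were in the middle portion (up to 147, median 17.1), while the 5' portion reached 60.1 with a median of 22.6.

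The highest Hox DHS, chr6:52161129-52163450 with a score of 147, covered the TSS of Hoxa6 and the most distal annotated TSS of Hoxa3, and exceeded 92.6% of all DHS in score. Hoxa7, whose product is active in blood progenitors, had DHS over its TSSs at chr6:52170029-52172516 (score 136) and at chr6:52165642-52169767 (66.9). Hoxa9, a regulator of haematopoietic stem cells and a leukaemia gene, had 3 DHS over its TSSs, with scores of 34.1, 13.1 and 8.69, so the gene best known in blood had lower scores than Hoxa6 and Hoxa7 beside it. Hoxa10, which also acts in myeloid progenitors, had a TSS DHS of score 60.1, and Hoxa11, a gene of limb and uterine development, had a TSS DHS of score 28.6, centred 453 bp past that TSS.

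The other Hoxa members had DHS near but not over a TSS, or none. Upstream of Hoxa4 lay chr6:52141960-52142568, the third highest of the cluster at 76.4, with its centre 512 bp before the TSS and its edge 0.208 kb from it. Hoxa13, the most 5' gene, had a highest promoter DHS of 27.1. Hoxa5, a gene of lung and neck patterning, had 12.8, the lowest of the Hoxa promoters with a DHS. That DHS lay 4.53 kb from the Hoxa5 TSS, in the body of Hoxa6, with its centre 563 bp upstream of a Hoxa6 TSS. Hoxa2, which patterns the hindbrain, was the member without a promoter DHS and lay 6.63 kb from the nearest. From the 3' end, the first 29.6 kb of the cluster (30.1% of it), with the whole of Hoxa2 and Hoxa4, held no DHS. The only other DHS in these windows on the 3' side was chr6:52108412-52108783, beyond Hoxa2, with a score of 15.8.

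Hoxa3 needs a reservation. It is annotated with several TSSs, of which the most distal lies at Hoxa6, 50.99 kb from the 3' end of the cluster, and its DHS of 147 is the DHS of Hoxa6. At the start codon of Hoxa3 no DHS was called within 5 kb upstream and 2 kb downstream. The same applied to Hoxb3, whose promoter DHS of 29.5 came through a distal TSS near Hoxb4, with none around its start codon, and to Hoxc6, whose promoter DHS of 11.2 lay at a TSS away from its start codon.

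**Figure D2:**
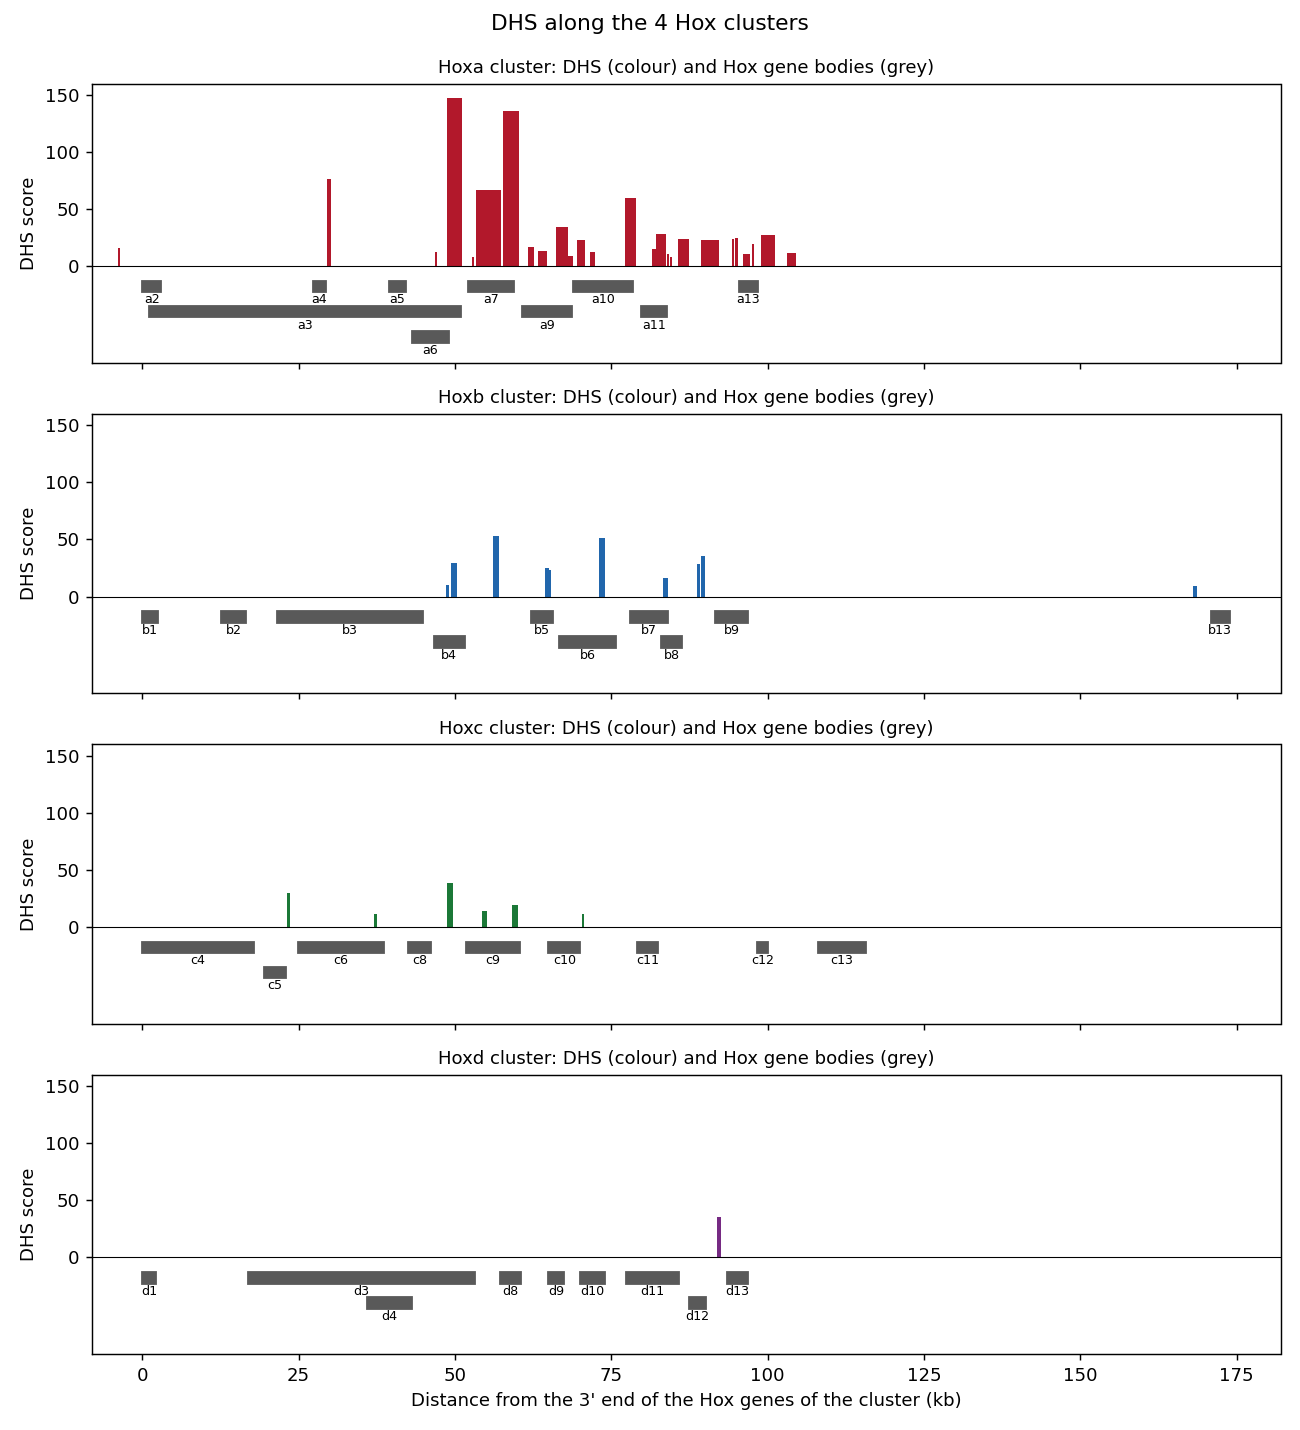
DHS along the 4 Hox clusters, drawn to scale from the 3' end of each (x axis, kb): coloured boxes span the width of each DHS and reach its score (y axis, scale not stated), and grey boxes are the gene bodies of the members with the letter and number of their symbols. Hoxa DHS lie mostly from Hoxa6 to beyond Hoxa13, with 1 upstream of Hoxa4 and 1 beyond Hoxa2. Hoxb DHS run from Hoxb4 to beyond Hoxb8 with 1 near Hoxb13. Hoxc DHS run from Hoxc5 to just past Hoxc10, and Hoxd has 1 DHS, between Hoxd12 and Hoxd13. DHS outside the windows, such as those between Hoxb9 and Hoxb13, are not drawn.

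In Hoxb (chr11:96055630-96229570, plus strand) 9 of the 10 DHS lay around Hoxb4 to Hoxb8 and the other, of score 9.36, near Hoxb13, in no case over a TSS. The highest was chr11:96172451-96173438, with a score of 52.7 and its centre 5054 bp upstream of the nearest TSS of Hoxb4, the gene known for expanding haematopoietic stem cells. Next was chr11:96155574-96156493 (51.5) in the body of Hoxb6, then chr11:96139599-96140216 (35.5), 3312 bp upstream of Hoxb8. Hoxb5 had 25.1 as its highest promoter DHS, Hoxb8 had 35.5 and Hoxb7 had 28.5. A further Hoxb7 DHS, of score 15.8, began 0.001 kb past its TSS and was not counted as covering it. The DHS at Hoxb4 were split between its upstream DHS and a pair in its body, the higher of which scored 29.5.

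No promoter DHS was called at Hoxb1, Hoxb2, Hoxb9 and Hoxb13. Hoxb1 and Hoxb2, the hindbrain genes at the 3' end, lay 46.1 and 32.0 kb from the nearest DHS, inside a stretch of 48.6 kb (28.0% of the cluster) without any that also held the whole of Hoxb3. This stretch ran on outside the cluster to a total of 118.7 kb. Hoxb9 lay 6.76 kb and Hoxb13, a gene of the tail and prostate, 5.26 kb from a DHS. By portions of 58.0 kb, counting also the DHS between Hoxb9 and Hoxb13 that lie outside the windows, there were 3, 6 and 3 DHS from the 3' end to the 5' end, with overlapping intervals. Coverage was highest in the middle portion, at 6.56%.

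Hoxc (chr15:102751534-102867274, plus strand) had its 6 DHS from just upstream of Hoxc5 to just upstream of Hoxc10. From the 3' end the portions of 38.6 kb held 2, 4 and 0 DHS, and a count of 0 allows up to 9.56 per 100 kb. The highest was chr15:102817504-102818496, with a score of 38.2 and its centre 3053 bp upstream of Hoxc8, a gene of the thoracic region. It was followed by chr15:102843679-102844093 (29.9), 360 bp upstream of Hoxc5, and by chr15:102807151-102808195 (19.2), which covered the TSS of Hoxc9 and was the only TSS DHS outside Hoxa. The promoter DHS of Hoxc6 and Hoxc10 both scored 11.2. Hoxc4, which in B cells is known to act on the gene of the deaminase AID, had no promoter DHS and lay 5.27 kb from the nearest. Hoxc11, Hoxc12 and Hoxc13 had none within 11.7, 29.4 and 45.0 kb, in a stretch of 45.0 kb (38.9% of the cluster) that ran on 5' to a total of 218.4 kb.

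Hoxd (chr2:74506367-74603200, plus strand) held a single DHS, chr2:74510694-74511222, of 529 bp. Its score of 35.3 was close to the median of the list (percentile 52.98), and its centre lay 2028 bp upstream of Hoxd12, in the gap before Hoxd13, both genes of limb development. The 92.0 kb on its 3' side, 94.99% of the cluster, held no DHS and contained 8 of the 9 genes whole, from Hoxd1 to Hoxd12, and none was called from its 5' side to the far end of Hoxd13 either. Distances from a TSS to the nearest DHS were 62.1 kb for Hoxd1, 48.8 kb for Hoxd4 and 38.8 kb for Hoxd3, then fell with few exceptions towards the 5' end, to 24.5 kb for Hoxd9, 6.23 kb for Hoxd11 and 1.76 kb for Hoxd12. The median distance was 24.5 kb in Hoxd, 2.74 kb in Hoxb, 2.56 kb in Hoxc and 0 in Hoxa. With windows of 10 kb the Hoxd density rose to 2.57 per 100 kb (0.530 to 7.50), as DHS at the neighbouring Evx2 came in.

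Counted by gene, 25 of the 38 members (65.8%, 48.6% to 80.4%) had a DHS in the gene body or within 5 kb, against 63.7% of all protein-coding genes. The median number per gene was 6 in Hoxa, 2 in Hoxb, 1 in Hoxc and 0 in Hoxd, with 1 over all protein-coding genes. A promoter DHS was found at 21 of 38 (55.3%, 38.3% to 71.4%), against 57% of all protein-coding genes, so as a whole the members were near the background. Between the clusters the count ran from 9 of 10 in Hoxa (55.5% to 99.7%) through 6 of 10 in Hoxb (26.2% to 87.8%) and 5 of 9 in Hoxc (21.2% to 86.3%) to 1 of 9 in Hoxd (0.281% to 48.2%). The intervals of Hoxa and Hoxd did not overlap, and those of Hoxb and Hoxc overlapped both. A DHS over a TSS was rarer than the background, at 7 of 38 members (18.4%, 7.74% to 34.3%) against 46.6% of protein-coding genes, and 6 of the 7 were Hoxa genes.

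Position within a cluster was compared by the paralogue number. A promoter DHS was present at 4 of 11 members numbered 1 to 4 (36.4%, 10.9% to 69.2%), 10 of 11 numbered 5 to 8 (90.9%, 58.7% to 99.8%) and 7 of 16 numbered 9 to 13 (43.8%, 19.8% to 70.1%). The middle class was thus the highest, with intervals that overlapped those of the other classes. Over all protein-coding genes the share was 57%. Without a DHS in the middle class was Hoxd8. None of the 4 members numbered 1 or 2 (Hoxa2, Hoxb1, Hoxb2, Hoxd1) had a promoter DHS. All members numbered 5, 6 and 7 had one (Hoxc6 not around its start codon, Hoxa5 through a DHS in Hoxa6). However, Hoxd has no member with those numbers. With a window of 1 kb on either side of a TSS the 3 shares were 18.2%, 54.5% and 37.5%, and with 1 kb on either side of the start codon 18.2%, 36.4% and 37.5%. The lead of the middle class thus depended on the window. For these narrower windows the share over all protein-coding genes was not counted.

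**Figure D3:**
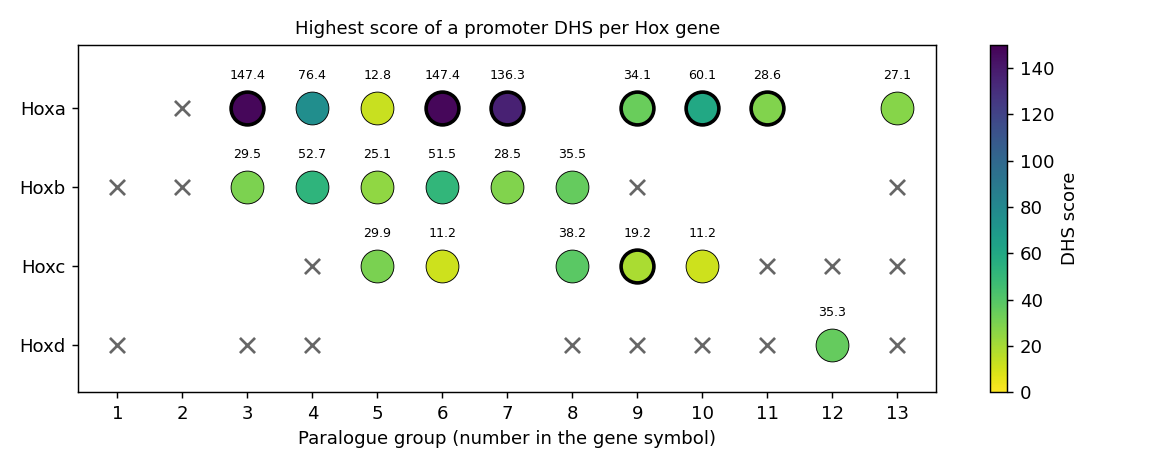
Highest score of a promoter DHS (5 kb upstream to 2 kb downstream of a TSS) for each of the 38 Hox genes, by cluster (rows) and paralogue number (columns), with the score written above each circle and shown by its colour. Crosses are genes without a promoter DHS, thick outlines are genes with a DHS over a TSS, and blank positions hold no member; 9 of 10 Hoxa genes and 1 of 9 Hoxd genes have a circle.

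Hox promoters are often CpG-rich, and CpG-rich promoters mostly carry a DHS, so the members were also compared with genes of that kind. A promoter counted as CpG-rich when the 1000 bp around a TSS had at least 55% GC and a ratio of observed to expected CpG of at least 0.6. Of the 22 CpG-rich members, 12 had a promoter DHS (54.5%, 32.2% to 75.6%), whereas 85.1% of all CpG-rich protein-coding genes had one, a value above the interval of the members. The difference was -30.5 percentage points, and between -30.4 and -45.5 points under the alternatives. By cluster the count was 8 of 8 in Hoxa (63.1% to 100%), 2 of 3 in Hoxb, 2 of 5 in Hoxc and 0 of 6 in Hoxd (0% to 45.9%), so Hoxa did not share the shortfall. The 10 members without were Hoxd1, Hoxd3, Hoxd8, Hoxd9, Hoxd11, Hoxd13, Hoxc11, Hoxc12, Hoxc13 and Hoxb9. A DHS over a TSS was present at 7 of the 22 (31.8%, 13.9% to 54.9%), against 74.2% of CpG-rich genes.

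Where CpG-rich members did have a promoter DHS, it was lower than in other genes. The highest promoter score had a median of 44.9 over these 12 members, with a range from 19.2 to 147, compared with 114 over 8339 other CpG-rich genes. Hoxa3, Hoxa6 and Hoxa7 were above that median, of which Hoxa3 and Hoxa6 share a DHS. The 16 members without a CpG-rich promoter had a promoter DHS in 9 cases (56.2%, 29.9% to 80.2%), and none over a TSS. Over all protein-coding genes, CpG-rich or not, these shares were 57% and 46.6%. They were not counted over all genes without a CpG-rich promoter, so no difference from genes of that kind can be read here.

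Bins of 1 kb, taken from the Hox windows regardless of promoters, were also compared, and they rest on the same DHS. The bins over the chromosomes are not limited to gene windows. In Hoxa, 11 of 16 CpG-rich bins (68.8%, 41.3% to 89.0%) touched a DHS, a share close to the 68.6% of 12315 such bins over the chromosomes. In Hoxb it was 3 of 11 (27.3%, 6.02% to 61.0%), in Hoxc 1 of 10 (10%, 0.253% to 44.5%) and in Hoxd 0 of 12 (up to 26.5%), each with an upper limit below 68.6%. The share of bins that were CpG-rich was 15.2% in Hoxa, 9.48% in Hoxb, 8.40% in Hoxc, 12.0% in Hoxd and 0.482% over the chromosomes. A link between this share and the number of DHS was not tested. Among the bins that were not CpG-rich, 39.3% touched a DHS in Hoxa, 9.52% in Hoxb, 8.26% in Hoxc and 2.27% in Hoxd, against 2.92% over the chromosomes. Hoxa stood apart in this ordinary sequence, where its share was the highest of the 5.

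**Figure D4:**
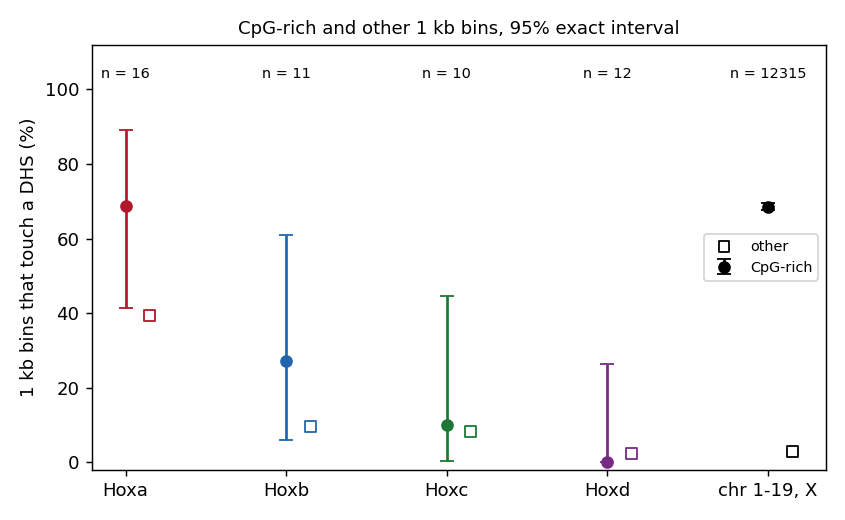
Share of 1 kb bins that touch a DHS (y axis, percent) in the 4 Hox clusters and over chromosomes 1 to 19 and X, for CpG-rich bins (filled circles, exact 95% interval, n above) and other bins (open squares). CpG-rich bins fall from 68.8% in Hoxa to 0% in Hoxd, with 68.6% over the chromosomes, and other bins fall from 39.3% to 2.27%.

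The clusters also hold microRNA genes, which are printed because paralogous clusters carry the same seeds (bases 2 to 8, in capitals). The mature sequences are from RefSeq (matched by name, table on GRCm38.p6), and the gene positions are those of GENCODE M1.
miR-196b-5p: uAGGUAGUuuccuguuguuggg
miR-196a-5p: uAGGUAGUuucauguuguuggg
miR-10a-5p: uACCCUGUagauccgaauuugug
miR-10b-5p: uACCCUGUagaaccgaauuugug
Mir196b, in Hoxa, lay inside the DHS of score 34.1 at Hoxa9. Its seed partner miR-196a-5p is made from Mir196a-1 in Hoxb, 13.02 kb from the nearest DHS, and from Mir196a-2 in Hoxc, 3.27 kb from it. Of the pair that share the other seed, Mir10a in Hoxb was 0.618 kb and Mir10b in Hoxd 52.9 kb from a DHS. The remaining locus, Mir615 in Hoxc, was 1.25 kb away. The Hoxa gene was thus under a DHS and the Hoxd gene farthest from any, but Mir196a-1 in Hoxb was farther from a DHS than both Hoxc genes, and these distances follow from the same DHS positions as above.

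Beyond the clusters the density was between 0 and 4 DHS per 100 kb, with 1.80 over the chromosomes. Within 100 kb beyond the windows there were 1 and 4 DHS at Hoxa (3' and 5'), 4 and 0 at Hoxb, 2 and 0 at Hoxc and 1 and 4 at Hoxd. At Hoxa, the 26 DHS in its windows compare with 4 in the 100 kb on its 5' side, none above a score of 19.4, whereas the 4 on the 5' side of Hoxd outnumber the 1 within it. The nearest protein-coding neighbours with a promoter DHS were Skap2 (149.8 kb from Hoxa on the 3' side, score 122) and Hibadh (285.3 kb, 82.9), Snx11 (399.3 kb, 66.5) and Atp5g1 (118.6 kb, 90.5) for Hoxb, Smug1 (116.5 kb, 56.1) and Calcoco1 (198.9 kb, 172) for Hoxc, and Mtx2 (60.7 kb, 79.7) and Evx2 (8.45 kb, 23.9) for Hoxd. Closer neighbours without one were Evx1 (52.6 kb) at Hoxa, Skap1 (96.3 kb) and Ttll6 (28.9 kb) at Hoxb and Gm17649 (0.283 kb) at Hoxc. The homeobox genes Evx1 and Evx2, which sit at the 5' ends, were opposite to their clusters, with none at Evx1 beside Hoxa and 3 at Evx2 beside Hoxd.

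Genes that act with or on Hox genes were counted in the same promoter window. Of 9 cofactor genes, whose TALE homeodomain proteins bind DNA with Hox proteins, 7 had a promoter DHS, among them Pbx2 (191), Pbx3 (121), Pknox1 (105) and Meis1 (74.7), and Meis2 and Pknox2 had none. Of 7 genes that activate Hox transcription, 5 had one: Kdm6b (210) and Kdm6a (165), which remove the Polycomb mark, Men1 (137) and Mll1 (107) of the Mll1 complex, and Cdx1 (52.4), while Cdx2 and Cdx4 had none. All 13 Polycomb genes had one (75.3% to 100%), from Cbx2 at 52.2 to Eed at 350. With 57% of all protein-coding genes as background and intervals of 40.0% to 97.2% for the cofactors and 29.0% to 96.3% for the activators, only the Polycomb list had an interval above it, and all 13 of its genes have CpG-rich promoters, for which the background is 85.1%. A DHS over a TSS was present at 5 of the 9 cofactors, 2 of the 7 activators and 12 of the 13 Polycomb genes, against 46.6% of all protein-coding genes, and was absent at Mll1, Kdm6b and Pknox1.

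Short sequence words were counted in the central 300 bp of the 43 Hox DHS, on both strands. AGNNGGCGC (CTCF core) was found in 3 (6.98%, 1.46% to 19.1%), compared with 6.04% of all DHS. TGATNNAT, bound by Hox proteins with Pbx, was found in 4 (9.30%, 2.59% to 22.1%), compared with 8.27%, and CCGGAAGT, bound by Ets factors, in 1 (2.33%, 0.0589% to 12.3%), compared with 1.68%. These 3 intervals held the value of all DHS. TGTGGT, bound by Runx factors, was found in 2 (4.65%, 0.568% to 15.8%), below the 20.6% of all DHS. Over the whole peak the Runx word was in 32.6% of Hox DHS and 45.7% of all DHS, with an interval of the Hox share (19.1% to 48.5%) that held the latter, so the difference did not hold there. A match is a description of the sequence and does not show that a factor was bound.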

How the data were processed

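The deposited peak list of the DNaseI library gives chromosome, start, end, MACS peak name and score. The authors made the peaks and their score with MACS, whose version and settings for this library are not given in the sources used here (those stated in the methods are for ChIP-seq and were not carried over). The submitters' processing notes name BWA 0.6.2, SAMtools and mm9. Coordinates deposited by the authors count from 0 and were converted to count from 1. Gene models were those of GENCODE M1 (NCBIM37, the sequence of mm9), and where a gene has several annotated transcripts all its TSSs were used. Of 47542 deposited peaks, the 47474 on chromosomes 1 to 19 and X were analysed. The depth is unknown.

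Counts, densities and shares were computed with Python 3.11.15, NumPy 2.4.6, SciPy 1.17.1 and pysam 0.24.0, and the scripts were tested on simulated data. Intervals are exact Poisson (density), exact conditional binomial (ratio of densities) or exact Clopper-Pearson (share). The members and lists were chosen with earlier results of these data known. Named are members with a TSS or promoter DHS, the 3 highest DHS and the longest stretch without a DHS of each cluster, the nearest neighbours, and list genes where fewer than 6 had or lacked a promoter DHS. Examples of cofactors, Polycomb genes and B cell markers are named beyond that rule, to give their scores, and a few list genes are not reported here. Alternatives were a score at or above the median, windows of 2 and 10 kb, joining of DHS closer than 500 bp, a peak centre inside the window, 1 kb around the TSS, other paralogue classes, another definition of CpG-rich (at least 50% GC and a CpG ratio of at least 0.75), the whole peak for words, and, chosen after seeing the data, windows around the start codon.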

Additional observations from a re-analysis of the deposited data

How the results depend on the processing

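Of 88 alternative values, 59 stayed within the range set for the reported value and 29 moved. With only the DHS at or above the median score, 11 of 43 Hox DHS remained; the density became 5.61 per 100 kb in Hoxa, 2.51 in Hoxb and 0.834 in Hoxc, and the covered share 12.2%, 1.66% and 0.828%. Promoter DHS were then present at 11 members, with 3 in Hoxb, 1 in Hoxc, 5 among paralogues 5 to 8 and 3 among paralogues 9 to 13. In the 11 remaining DHS the Ets, Hox-Pbx and Runx words were found in 0% (0% to 28.5%). The CTCF core was found in 18.2% of them (2.28% to 51.8%). These intervals held the shares over all DHS, 1.68% for Ets, 8.27% for Hox-Pbx, 20.6% for Runx and 6.04% for CTCF. Within 1 kb of a TSS, 2 Hoxb and 0 Hoxd genes had a DHS, as did 2 of paralogues 1 to 4 and 6 of paralogues 5 to 8. With the promoter window set on the start codon (chosen after seeing the data), 2 of paralogues 1 to 4 had a DHS. Within 1 kb of the start codon (also chosen after seeing the data) it was 12 members, with 2 in Hoxb, 3 in Hoxc, 0 in Hoxd, 2 among paralogues 1 to 4 and 4 among paralogues 5 to 8. Over the whole peak, which searches more bases, the CTCF core was in 20.9% of Hox DHS (13.3% of all DHS), the Hox-Pbx word in 30.2% (23.4%) and the Runx word in 32.6% (45.7%), each with an interval of the Hox share that held the value of all DHS. Windows of 2 and 10 kb, joining of close DHS, the peak centre and the other paralogue classes moved no value beyond its interval or 1.5 times its count. The causes were not tested.

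A single library gives no replicate error, and without read counts a DHS missed for lack of depth cannot be told from closed chromatin. No paired analysis was possible because only the DNaseI library has a peak list and no result comes from a test.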
